A study of Homo sapiens with 9 samples.

Results

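The carnitine shuttle carries long-chain fatty acids into mitochondria, and 7 genes encode its acyltransferases and its carrier: CPT1A, CPT1B, CPT1C, CPT2, SLC25A20, CRAT and CROT. They were chosen by name, and all 7 were found among the 27315 gene rows of the deposited expression table. All 7 also passed the filter on low values, which kept 13165 genes. The samples were cultures of MDA-MB-468, an established human triple-negative breast cancer cell line of basal type. Cells were infected with lentiviruses made in the packaging line 293T and were kept under antibiotic selection. The viruses carried a pLKO.1 hairpin vector with a scrambled control sequence, hairpin sh1 against BBOX1 or hairpin sh6 against BBOX1, and each group had 3 libraries of polyadenylated RNA. All 9 libraries therefore share infection, vector and selection, and no uninfected cells were among them. BBOX1 encodes gamma-butyrobetaine hydroxylase, which carries out the last step of carnitine synthesis.

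Long-chain fatty acids are first joined to coenzyme A, and the acyl-CoA so formed does not cross the inner mitochondrial membrane. A carnitine palmitoyltransferase 1 on the outer membrane moves the acyl group to carnitine, the carrier encoded by SLC25A20 exchanges the acylcarnitine for free carnitine across the inner membrane, and carnitine palmitoyltransferase 2 hands the acyl group back to coenzyme A in the matrix for beta-oxidation. The first step is held back by malonyl-CoA, an intermediate of fatty acid synthesis. Carnitine acetyltransferase and the peroxisomal carnitine octanoyltransferase transfer shorter acyl groups.

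Values are given as normalised counts recovered from the deposited log2 values. Differences between groups were tested on the deposited log2 values with limma. P-values were adjusted by the Benjamini-Hochberg method over the 13165 genes, and a difference with an adjusted p under 0.05 is named a call here. The labels describe triplicates without saying that they came from separate infections, so the p-values cover only how these libraries vary, and that variation may be technical. In bulk RNA, fewer cells with a transcript and less of it per cell cannot be told apart. Recovered reads ran from 16723015 to 19732683 per control library, from 15737542 to 16212795 per sh1 library and from 16069705 to 18880041 per sh6 library. All 12 markers of a basal epithelial line passed the filter, and their summed count was 173315.0 to 189415.1 in the controls, 175764.3 to 183944.2 with sh1 and 187419.2 to 195030.0 with sh6. These sums hide moves in both directions. With sh1, 5 of the 12 were called higher and 4 lower, and with sh6 5 were higher and 2 lower. Over all genes tested, 58.9% were called with sh1 and 67.8% with sh6. EGFR stood at 54391.1 to 56476.1 in the controls, 57445.4 to 59700.4 with sh1 and 42134.5 to 44979.4 with sh6. KRT5 stood at 6954.5 to 7301.9, 10409.2 to 11004.4 and 12287.6 to 12804.6 in the same order. EPCAM stood at 6760.6 to 7155.5, 5599.4 to 5988.7 and 7198.5 to 7707.4, so it was lower with sh1 and higher with sh6. Among receptor genes that define the triple-negative class, PGR was at the floor in every library, while ESR1 and ERBB2 passed the filter. ESR1 stood at 210.6 to 252.9 in the controls, 225.8 to 255.1 with sh1 and 96.9 to 116.1 with sh6, and fell with sh6. ERBB2 stood at 1073.9 to 1116.0, 744.9 to 762.9 and 579.2 to 640.4, and fell with both hairpins (limma adjusted p = 3.27e-08 and 1.01e-12). Markers of other cell types were mostly below the filter, which 2 of 7 fibroblast, 2 of 5 endothelial, 1 of 7 muscle, 1 of 6 liver and none of 6 neuron markers passed. CD68, a macrophage marker, had a mean count of 211 in the controls, 77.6 with sh1 and 134 with sh6 and fell with both (limma adjusted p = 2.39e-11 and 1.33e-05). Endothelial markers summed to 248.2 to 284.9 in the controls, 105.5 to 152.6 with sh1 and 94.9 to 135.3 with sh6, and fibroblast markers to 344.0 to 486.1, 298.5 to 364.3 and 362.7 to 449.0 in the same order. Most of the endothelial sum was 1 gene, KDR, at 204.8 to 241.0, 74.9 to 97.3 and 77.6 to 101.1, while TEK stood at 11.4 to 18.3, 17.1 to 36.4 and 6.5 to 24.6. Most of the fibroblast sum was COL1A1, at 310.5 to 425.1, 280.0 to 339.6 and 300.1 to 381.7, while PDGFRA stood at 20.3 to 42.5, 11.9 to 12.7 and 46.1 to 54.3. The part of these shifts in the results was not tested.

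BBOX1, the target of both hairpins, was read first as a check of the labels. It stood at 2703.2, 2784.7 and 2359.8 in the control libraries, at 324.2, 345.7 and 327.6 with sh1, and at 606.1, 617.7 and 580.6 with sh6. Its log2 value fell by 2.76 with sh1 (limma adjusted p = 3.73e-25) and fell by 2.01 with sh6 (limma adjusted p = 6.15e-22). BBOX1 was higher with sh6 than with sh1 by 0.75 on the log2 scale (limma adjusted p = 2.73e-11), so the hairpins left different amounts of their target.

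The sequence that the labels give for sh1 is shown because the members were searched for matches to it. Its capitals mark the 7 bases that pair with positions 2 to 8 of the guide strand.
sh1 target: cctctacctttgtGGACTTTa
None of the 7 members held the whole target, and none held the capital stretch in its annotated 3′ UTR, against 2059 of 18477 genes (11.1%) that did. Other kinds of site were not searched, and the 3′ UTRs of CPT1C and CPT1B were only 129 and 257 bases long. Finding none therefore does not tell whether sh1 acts on a member. Which target sequence sh6 carries is not stated in the labels, so the same search was not made for it.

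With sh1, 3 of the 7 members rose (CPT1A, CPT1C and SLC25A20), none fell and 4 did not pass the test. Over all genes tested, 58.9% were called with sh1, 29.0% higher and 30.0% lower. Of these calls 49.1% were higher, against 65.0% under limma's voom on the recovered counts. With sh6, 4 members rose (the same 3 and CROT), 2 fell (CPT2 and CRAT) and CPT1B did not pass. Over all genes tested, 67.8% were called with sh6, 34.2% higher and 33.6% lower. The 3 members that rose with each hairpin compare with 18.9% of all genes called higher with both, 19.4% called lower with both, and 38.3% called with both in the same direction. Both comparisons use the same 3 control libraries. Read by overlap alone, the sh1 libraries lay above all controls for 3 members and below them for CRAT, against 31.7% and 32.4% of all genes tested, 64.1% in all. The sh6 libraries lay above all controls for 4 members and below them for 2, against 34.6% and 33.9%, 68.4% in all. They lay above all sh1 libraries for 3 members and below them for 2, against 33.8% and 31.6%, 65.3% in all. The median log2 change of the 7 members was 0.05 with sh1, beside 0.00 over all genes, and 0.31 with sh6, beside 0.01 over all genes. The median of the absolute change was 0.13 with sh1, beside 0.22 over all genes, and 0.38 with sh6, beside 0.28.

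**Figure D1:**
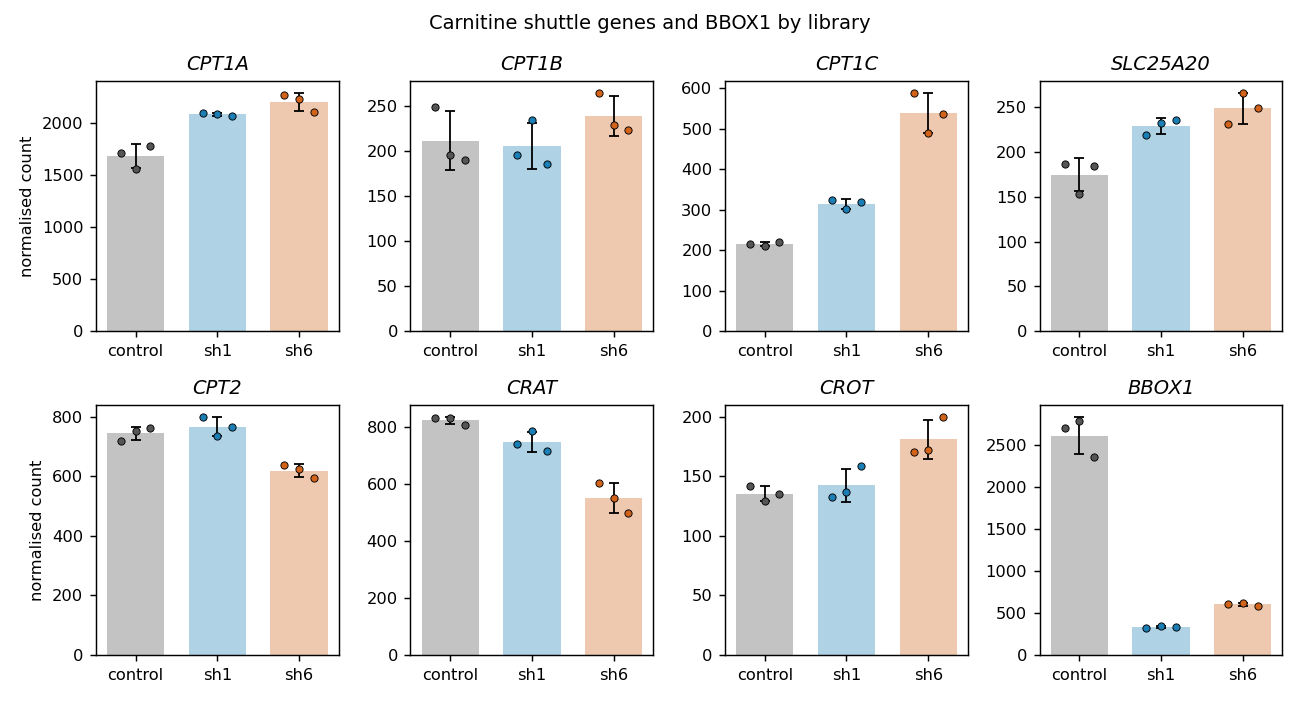
Normalised count (vertical axis, starting at 0) of each carnitine shuttle gene and of BBOX1 in the control, sh1 and sh6 groups, with 1 point per library, bars at the mean and error bars of 1 SD (n = 3). CPT1A, CPT1C and SLC25A20 stand above the controls in all 6 hairpin libraries, CRAT stands below them in all 6, and CPT2 is lower and CROT higher in the sh6 libraries alone.

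CPT1A encodes the form of carnitine palmitoyltransferase 1 best known from liver and is widely expressed. Its gene lies on the minus strand at chr11:68754620-68844410 (GRCh38, GENCODE annotation). CPT1A stood at 1710.0, 1562.0 and 1781.9 in the control libraries, at 2098.7, 2091.1 and 2067.7 with sh1, and at 2271.5, 2233.6 and 2106.9 with sh6. All 6 hairpin libraries lay above all 3 controls. Means were 1685 ± 112 in the controls, 2086 ± 16.1 with sh1 and 2204 ± 86.2 with sh6 (n = 3 each, SD), 1.24 and 1.31 times the control mean. The log2 change was 0.30 (SE 0.0565, limma adjusted p = 3.54e-05) with sh1 and 0.38 (limma adjusted p = 8.07e-07) with sh6. The authors' deposited table, which does not state the groups of its comparison, gives CPT1A a log2 fold change of 0.35 with an adjusted p of 4.13e-06. Sh6 exceeded sh1 by 0.08 (95% interval -0.04 to 0.19, limma adjusted p = 0.248), which did not pass, although all 3 sh6 libraries lay above all 3 sh1 libraries. Under limma's voom on the recovered counts that last difference was -0.02, where the median of all genes was -0.09 and CPT1A stood 0.07 above it. Liver markers had a summed count of 37.6 to 53.9 in the controls, 13.9 to 16.1 with sh1 and 17.4 to 26.9 with sh6, with TTR at 0. Most of that sum was SERPINA1, at 27.7 to 35.1 in the controls, 9.9 to 13.9 with sh1 and 16.3 to 23.5 with sh6, which fell with both hairpins (limma adjusted p = 1.00e-04 and 0.0142). Its sh6 call was lost without the second control (limma adjusted p = 0.052) or the first sh6 library (limma adjusted p = 0.061), and its part in the CPT1A values was not tested.

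CPT1C encodes the form best known from neurons, which resides in the endoplasmic reticulum and has little enzyme activity in most reports. The gene lies on the plus strand at chr19:49690898-49713731. CPT1C stood at 215.1, 209.2 and 221.0 in the control libraries, at 322.9, 301.2 and 318.8 with sh1, and at 588.4, 489.1 and 536.7 with sh6. The 3 groups did not overlap, in the order control, sh1, sh6. Means were 215 ± 5.90, 314 ± 11.5 and 538 ± 49.7 (SD, n = 3 each), and the sh6 mean was 2.50 times the control mean and 1.71 times the sh1 mean. CPT1C rose by 0.45 with sh1 (95% interval 0.29 to 0.60, limma adjusted p = 7.52e-06) and by 1.12 with sh6 (95% interval 0.97 to 1.27, limma adjusted p = 4.23e-14) on the log2 scale. Of all genes tested, 21.0% changed by at least as much as CPT1C with sh1, 3.75% with sh6, 6.13% in the mean of both hairpins and 8.36% between the hairpins, in either direction. Sh6 exceeded sh1 by 0.67 (limma adjusted p = 5.81e-09). The authors' deposited table gives CPT1C a log2 fold change of 0.99 with an adjusted p of 0.000255. Markers of neurons were near 0, with a summed count of 9.4 to 18.6 in the controls, 11.0 to 15.4 with sh1 and 8.4 to 9.9 with sh6, and RBFOX3, STMN2 and GAP43 at 0.

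CPT1B encodes the form best known from muscle. Its gene lies on the minus strand at chr22:50568861-50578465, and a read-through transcript, CHKB-CPT1B, runs from the neighbouring choline kinase gene into it and shares 2722 exon bases on the same strand. Reads of these 2 features may be divided between them in either way, so the values of both are uncertain. CPT1B stood at 249.0, 195.4 and 189.9 in the control libraries, at 195.0, 233.9 and 185.8 with sh1, and at 264.2, 229.0 and 223.5 with sh6. All 3 groups overlapped, and the first control library was the highest of its group. The log2 change was -0.03 with sh1 (95% interval -0.22 to 0.15, limma adjusted p = 0.773) and 0.14 with sh6 (95% interval -0.04 to 0.33, limma adjusted p = 0.162). Without the first control library the sh6 change was 0.24 and passed the test (limma adjusted p = 0.0296), and the sh1 change was 0.065. Leaving out the third sh1 library also turned the sh1 change, to 0.019. Sh6 exceeded sh1 by 0.18 (95% interval -0.01 to 0.36, limma adjusted p = 0.0943), and without the second sh1 library by 0.26 (limma adjusted p = 0.0343). CHKB-CPT1B stood at 132.4, 134.4 and 110.0 in the controls, at 101.5, 135.6 and 103.3 with sh1, and at 95.9, 114.1 and 91.5 with sh6, with log2 changes of -0.10 (limma adjusted p = 0.359) and -0.22 (limma adjusted p = 0.045). The latter call was lost without the first or second control or the first or the third sh6 library (limma adjusted p = 0.109 to 0.153). Summed, the 2 features came to 337 ± 41.2 in the controls, 318 ± 44.4 with sh1 and 339 ± 22.7 with sh6 (n = 3 each, SD). CHKB itself changed by -0.11 with sh1 (limma adjusted p = 0.33) and fell by 0.31 with sh6 (limma adjusted p = 0.00406), and CHKB-AS1 was below the filter. Muscle markers summed to 29.2 to 43.7 in the controls, 32.3 to 44.4 with sh1 and 37.6 to 51.1 with sh6, with MYH7 at 0.

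Per kilobase of transcript, CPT1A made up most of the combined level of the CPT1 genes in every library. Its share was 67.7% ± 1.89 in the controls, 68.3% ± 0.609 with sh1 and 60.6% ± 1.90 with sh6 (n = 3 each, SD). The share of CPT1C was 15.0%, 16.2% and 15.6% in the control libraries, 19.0%, 17.5% and 19.1% with sh1, and 27.5%, 24.7% and 27.5% with sh6. These 3 groups did not overlap, and each pair gave an exact two-sided permutation p of 0.1, the smallest that 3 libraries against 3 allow. The CPT1B share was 16.7% ± 2.16 in the controls, 13.2% ± 1.47 with sh1 and 12.9% ± 0.534 with sh6. Per kilobase of coding sequence, the CPT1C share was 9.86%, 11.7% and 17.5% in the same order. The summed counts of the 3 genes rose from a mean of 2111 in the controls to 2605 with sh1 and 2981 with sh6, with no overlap between groups (exact two-sided permutation p = 0.1 for each pair, the smallest possible). The shares and sums were chosen after the single values had been seen, so their separation and p-values add no support to those values.

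**Figure D2:**
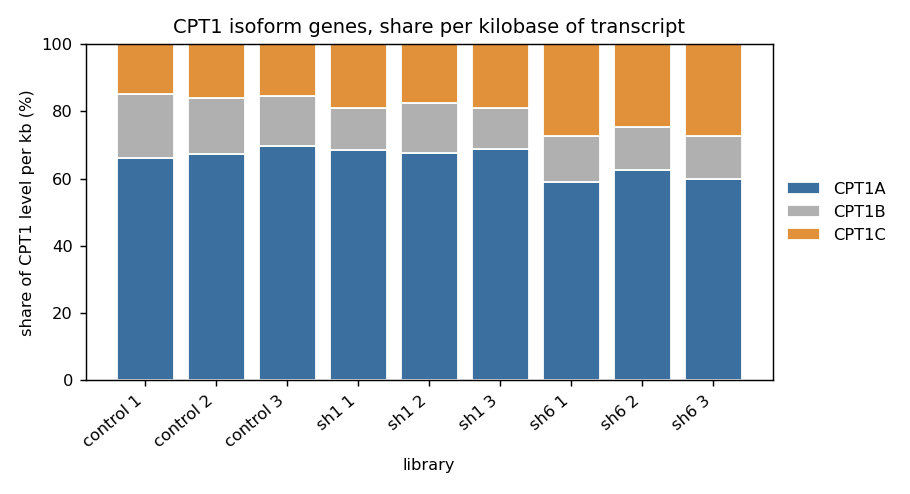
Share of the combined CPT1 level (vertical axis, percent of the summed count per kilobase of transcript) held by CPT1A, CPT1B and CPT1C in each of the 9 libraries (horizontal axis). The CPT1C share is 15.0% to 16.2% in the controls, 17.5% to 19.1% with sh1 and 24.7% to 27.5% with sh6.

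SLC25A20 encodes the carnitine-acylcarnitine carrier of the inner membrane, and its gene lies on the minus strand at chr3:48856931-48898993. It stood at 186.4, 153.1 and 184.9 in the control libraries, at 219.6, 232.1 and 236.3 with sh1, and at 231.5, 266.0 and 248.8 with sh6. All 6 hairpin libraries lay above the controls, and the hairpins overlapped each other. Means were 175 ± 18.8, 229 ± 8.69 and 249 ± 17.3 (SD, n = 3 each), 1.31 and 1.42 times the control mean with sh1 and sh6. SLC25A20 rose by 0.31 with sh1 (limma adjusted p = 0.00193) and by 0.40 with sh6 (limma adjusted p = 8.39e-05) on the log2 scale. The difference between the hairpins was 0.09 (95% interval -0.08 to 0.26, limma adjusted p = 0.339). The authors' deposited table gives SLC25A20 a log2 fold change of 0.45 with an adjusted p of 0.000841. The neighbouring genes ARIH2 and PRKAR2A-AS1 changed by 0.46 (limma adjusted p = 3.62e-08) and 0.18 (limma adjusted p = 0.151) with sh1, and by 0.10 (limma adjusted p = 0.137) and -0.21 (limma adjusted p = 0.0725) with sh6.

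CPT2 encodes the matrix-side transferase, and its gene lies on the plus strand at chr1:53196429-53214197. CPT2 stood at 720.1, 753.9 and 760.9 in the control libraries, at 800.7, 735.8 and 765.1 with sh1, and at 637.7, 623.1 and 595.1 with sh6. The sh6 libraries lay below all others, and the sh1 libraries overlapped the controls. Means were 745 ± 21.8, 767 ± 32.5 and 619 ± 21.7 (SD, n = 3 each), so the sh6 mean was 0.830 of the control mean and 0.806 of the sh1 mean. CPT2 fell by 0.25 with sh6 (95% interval -0.37 to -0.12, limma adjusted p = 0.00102), and its change with sh1 was 0.04 (95% interval -0.09 to 0.17, limma adjusted p = 0.616). The direct difference, sh6 less sh1, was -0.28 (limma adjusted p = 0.000262). Under limma's voom on the recovered counts, the sh1 change of CPT2 was 0.15 and passed the test (limma adjusted p = 0.0406). That setting moved the median of all genes by 0.11 with sh1, and CPT2 stood 0.04 above that median. On the opposite strand, CPT2 shares 1151 exon bases with the antisense gene AL606760.2, for which no values were used here, and 99 with C1orf123, and no source used here says whether reads were counted by strand. C1orf123 changed by 0.17 with sh1 (limma adjusted p = 0.0478), a call lost without any 1 of the controls, the second or the third sh1 library or the second sh6 library (limma adjusted p = 0.0529 to 0.258), and changed by 0.06 with sh6 (limma adjusted p = 0.475). MAGOH, another neighbour, changed by -0.02 with sh1 (limma adjusted p = 0.84) and by -0.15 with sh6 (limma adjusted p = 0.0406), the latter call being lost without any 1 of the controls, any 1 of the sh6 libraries or the third sh1 library (limma adjusted p = 0.0532 to 0.0966).

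CRAT encodes carnitine acetyltransferase, which moves acetyl and other short acyl groups between coenzyme A and carnitine. Its gene lies on the minus strand at chr9:129094810-129111189. CRAT stood at 831.4, 832.2 and 809.2 in the control libraries, at 740.5, 787.8 and 717.5 with sh1, and at 605.4, 550.5 and 497.8 with sh6. The 3 groups did not overlap, in the falling order control, sh1, sh6. Means were 824 ± 13.1, 749 ± 35.8 and 551 ± 53.8 (SD, n = 3 each), so that sh1 stood at 0.908 and sh6 at 0.669 of the control mean. CRAT fell by 0.53 with sh6 (limma adjusted p = 3.8e-08) on the log2 scale. Its sh1 change was -0.13 (95% interval -0.27 to 0.01, limma adjusted p = 0.1) and did not pass. It was -0.145 with limma's sample weights, which passed (limma adjusted p = 0.0201), and -0.027 under voom on the recovered counts (limma adjusted p = 0.754), where the median of all genes moved by 0.11. The direct difference, sh6 less sh1, was -0.41 (limma adjusted p = 6.25e-06). On the opposite strand, CRAT shares 75 exon bases with PTPA and 34 with the antisense gene AL158151.2. PTPA changed by -0.05 with sh1 (limma adjusted p = 0.462) and fell by 0.35 with sh6 (limma adjusted p = 8.4e-06), and its part in the CRAT values was not tested.

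CROT encodes the peroxisomal carnitine octanoyltransferase, which prepares chain-shortened acyl groups for export from peroxisomes. Its gene lies on the plus strand at chr7:87345681-87399795. CROT stood at 141.7, 129.6 and 135.6 in the control libraries, at 132.4, 136.6 and 158.4 with sh1, and at 170.6, 172.4 and 200.3 with sh6. The sh6 libraries lay above all others, and sh1 overlapped the controls. Means were 136 ± 6.05, 142 ± 14.0 and 181 ± 16.7 (SD, n = 3 each), and the sh6 mean was 1.34 times the control mean. CROT rose by 0.31 with sh6 (limma adjusted p = 0.0024), and its change with sh1 was 0.05 (95% interval -0.13 to 0.23, limma adjusted p = 0.643). The neighbouring gene TP53TG1 changed by -0.10 with sh1 (limma adjusted p = 0.446) and by -0.22 with sh6 (limma adjusted p = 0.0787; 0.00464 without the third control, with a change of -0.36), and the neighbour ABCB4 was below the filter. The direct difference of CROT between hairpins was 0.26 (limma adjusted p = 0.011). It no longer passed without the first sh1 library (0.22, limma adjusted p = 0.0585) or without the third sh6 library (0.20, limma adjusted p = 0.0746), and the third sh1 library alone kept the sh1 change above 0, since it was -0.008 without it.

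Between the hairpins themselves, 2 members were higher with sh6 (CPT1C and CROT), 2 were lower (CPT2 and CRAT) and 3 did not pass. Over all genes tested, 59.7% differed between the hairpins, 30.8% higher and 28.9% lower with sh6. Of these calls 51.6% were higher, against 37.5% under voom. In the mean of both hairpins against the control, 4 members rose (CPT1A 0.34, CPT1C 0.78, SLC25A20 0.35 and CROT 0.18), CRAT fell by 0.33, and CPT1B (0.06, limma adjusted p = 0.547) and CPT2 (-0.10, limma adjusted p = 0.0959) did not pass. Over all genes tested, 65.5% were called in that comparison, 32.3% higher and 33.1% lower. The CROT call in the mean was weak (limma adjusted p = 0.037) and was lost on leaving out the second control (0.119), the third control (0.0684), the third sh1 (0.0983) or the third sh6 library (0.0892), each value being a limma adjusted p. Pooling both hairpins into 1 group of 6, which puts their difference into the error, left 3 members called and ended the calls of CRAT (limma adjusted p = 0.0665) and CROT (limma adjusted p = 0.193). Comparing 6 hairpin with 3 control libraries, an exact permutation test, two-sided, gave p = 0.0238, the smallest it can give, for CPT1A, CPT1C, SLC25A20 and CRAT. The same exact test gave p = 0.143 for CROT, 0.405 for CPT2 and 0.643 for CPT1B. The authors' deposited table gives CRAT a log2 fold change of -0.34 with an adjusted p of 0.0725 and CROT 0.26 with 0.221, neither of which passes there. For CPT2 the authors' deposited table gives -0.10 with an adjusted p of 0.542, and for CPT1B 0.07 with 0.768. All 6 hairpin libraries lay above the controls for 3 members and for 19.9% of all genes tested, below them for CRAT and for 20.5% of all genes, and on either side for 40.3%.

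**Figure D3:**
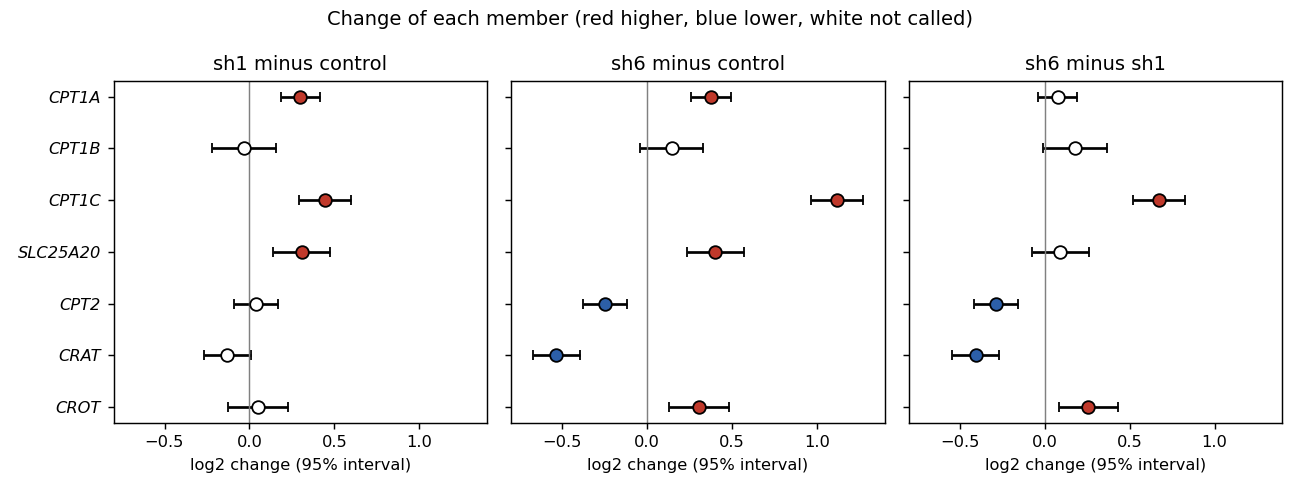
Log2 change of each carnitine shuttle gene (horizontal axis, difference of group means of the deposited values, bars the 95% interval) with sh1 against control, sh6 against control and sh6 against sh1, 3 libraries per group. Red points were called higher and blue points lower at a limma adjusted p under 0.05, and white points were not called; CPT1C has the largest change in each panel.

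Ratios between members were also taken within each library. The ratio of CPT1A to CPT2 counts was 2.38, 2.07 and 2.34 in the control libraries, 2.62, 2.84 and 2.70 with sh1, and 3.56, 3.59 and 3.54 with sh6. The ratio of SLC25A20 to CPT2 was 0.235 ± 0.0287 in the controls, 0.300 ± 0.0221 with sh1 and 0.403 ± 0.0347 with sh6 (n = 3 each, SD). The ratio of CRAT to CROT was 6.09 ± 0.295, 5.30 ± 0.670 and 3.08 ± 0.541 in the same order (SD, n = 3 each). In all 3 ratios the groups did not overlap, and each pair had an exact two-sided permutation p of 0.1, the smallest possible. These ratios were chosen after the values had been seen, so their separation and p-values add no support to the single values.

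**Figure D4:**
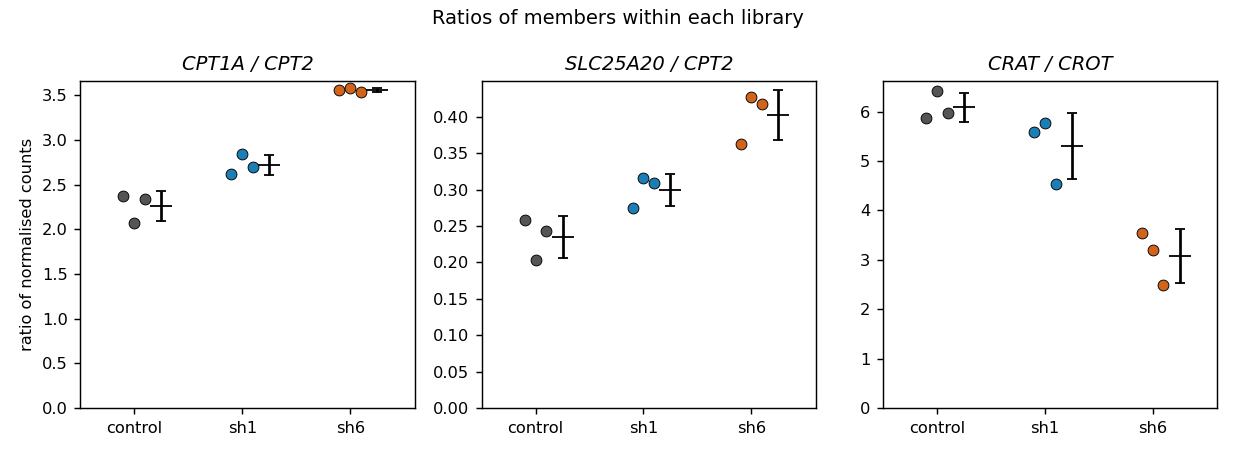
Ratio of normalised counts (vertical axes, starting at 0) of CPT1A to CPT2, SLC25A20 to CPT2 and CRAT to CROT in each library of the control, sh1 and sh6 groups, with the mean and 1 SD (n = 3) beside the points. CPT1A to CPT2 rises from a mean of 2.26 in the controls to 3.56 with sh6, and CRAT to CROT falls from 6.09 to 3.08.

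Levels were compared between genes as normalised counts per kilobase of transcript. In the controls CPT1A stood highest at 322 ± 21.4 and CRAT next at 298 ± 4.74, with overlapping libraries, followed by CPT2 at 241 ± 7.05 (SD, n = 3 each). SLC25A20 (93.0), CPT1B (79.4) and CPT1C (73.9) followed, each overlapping the next, and CROT was lowest at 42.7. With sh1 the order was CPT1A (398.7), CRAT (270.9), CPT2 (248.0), SLC25A20 (122.0), CPT1C (108.0), CPT1B (77.0) and CROT (44.9), and no neighbours overlapped. With sh6 CPT1A stood at 421 ± 16.5, followed by CPT2 (200.0), CRAT (199.5) and CPT1C (184.9), whose neighbours in this order overlapped, and then by SLC25A20 (132.4), CPT1B (89.7) and CROT (57.1). CPT1C thus moved from the sixth place in the controls to the fourth with sh6. Per kilobase of coding sequence it moved only to the fifth, with SLC25A20 at 275.5 and CPT1C at 223.4 with sh6.

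The genes most like each member were taken as those with the smallest root mean square difference of log2 values over the 9 libraries, each gene less its control mean, among 11159 genes. CPT1C was closest to PXDN (0.060) and NSMF (0.077), and 9 genes lay within 0.1 of it. CPT1A was closest to KIRREL (0.039) and INTS11 (0.042) with 396 genes within 0.1, and SLC25A20 to FIP1L1 (0.051) and NDUFS3 (0.055) with 219. CPT2 was closest to MCU (0.038) and NFE2L1 (0.045) with 366 genes within 0.1, and CRAT to NAGLU (0.053) and SH3GLB2 (0.058) with 102. CROT was closest to COQ10A (0.041) and ZNF418 (0.045) with 301, and CPT1B to SNRPA (0.066) and CHCHD10 (0.069) with 43. Among the members the closest pair was CPT1A and SLC25A20 (0.063), and the farthest was CPT1C and CRAT (1.01). Fewer genes lay within 0.1 of CPT1C than of each of the other 6 members. The measure is not scaled by the size of the change or by the spread between libraries. CPT1C changed most, and the part of that size in this count was not tested. The median difference from the 11159 genes was 0.714 for CPT1C and 0.284 to 0.396 for the other members.

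Bases upstream of the annotated start are shown for the 4 members that rose with sh6, as far as they lie outside annotated transcripts in the RefSeq promoter table (GRCh38.p14), which matched 5 of the 7 members. They are read 5′ to 3′ on the strand of the gene and carry none of the motifs searched.
CPT1A, chr11:68844411-68844527, minus strand: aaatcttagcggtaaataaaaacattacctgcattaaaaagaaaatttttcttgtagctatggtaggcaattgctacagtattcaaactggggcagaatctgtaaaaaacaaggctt
CPT1C, chr19:49690598-49690661, plus strand: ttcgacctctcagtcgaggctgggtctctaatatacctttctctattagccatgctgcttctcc
SLC25A20, chr3:48898994-48899132, minus strand: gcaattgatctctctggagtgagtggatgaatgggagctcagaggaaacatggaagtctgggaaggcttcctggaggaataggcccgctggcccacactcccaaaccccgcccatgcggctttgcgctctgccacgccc
CROT, chr7:87345414-87345663, plus strand: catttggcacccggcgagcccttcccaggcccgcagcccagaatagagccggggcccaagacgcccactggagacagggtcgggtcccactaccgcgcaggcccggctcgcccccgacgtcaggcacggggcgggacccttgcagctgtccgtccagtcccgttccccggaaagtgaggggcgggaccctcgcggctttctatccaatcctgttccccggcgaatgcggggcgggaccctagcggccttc
Windows from 250 bases before to 50 bases after each start were searched on both strands for the direct repeat of AGGTCA with 1 base of any kind between its copies, bound by PPAR with RXR, for the single AGGTCA, for the E-box CACGTG and for ACGTG, part of sites bound by hypoxia-inducible factors, which lies within CACGTG. Among all 35116 windows, these were found in 0.0228%, 13.8%, 7.26% and 21.4%. Of the 7 windows of the 5 members, 1 held ACGTG, that of the third CPT1C start (chr19:49691246-49691545), 160 bases before that start, and none held the others. That window lies wholly inside the annotated CPT1C gene, so none of its bases are upstream of the gene. The capitals in the next line mark ACGTG.
CPT1C, around ACGTG: ccttgattcaACGTGgtaagtactg
The CPT1A window had a GC content of 50.0%, that of SLC25A20 67.0%, that of CROT 70.0% and that of CPT2 65.0%. Those of CPT1C had 57.7%, 59.7% and 67.0%, and the median over all windows was 58.7%.

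The genes that feed the shuttle and use its product were read from lists. Of the 5 tested genes of carnitine synthesis and uptake, BBOX1 among them, 1 rose and 4 fell with sh1, and none rose and 3 fell with sh6. BBOX1 is the target of both hairpins, so its own fall in these counts was set by the design. ALDH9A1, which makes gamma-butyrobetaine, the substrate of BBOX1, fell by 0.39 (limma adjusted p = 3.55e-07) and 0.20 (limma adjusted p = 0.0017) with sh1 and sh6. SLC22A4, an organic cation and carnitine transporter, changed by -0.24 with sh1 (limma adjusted p = 0.0452) and fell by 0.47 with sh6 (limma adjusted p = 0.000237). Its sh1 libraries overlapped the controls, and the sh1 call was lost without the first control (-0.151, limma adjusted p = 0.265), the first sh1 (-0.155, limma adjusted p = 0.261) or the third sh1 library (limma adjusted p = 0.106). The gene that rose with sh1 was SLC22A5, also of the uptake genes and named after its values were seen. It rose by 0.48 (limma adjusted p = 3.43e-06), and its sh6 change was -0.16 (limma adjusted p = 0.0667). Its mean count was 316 in the controls, 462 with sh1 and 276 with sh6. The 12 tested genes of fatty acid uptake and activation, which supply the acyl-CoA that CPT1 uses, gave 4 higher and 7 lower with sh1 and 3 higher and 8 lower with sh6. CD36, a fatty acid uptake protein, went from a mean count of 113 in the controls to 10.6 with sh1 and 10.0 with sh6. ACSL1, a long-chain acyl-CoA synthetase, went from 4831 to 1977 and 1960, and DBI, the acyl-CoA-binding protein, from 3142 to 1744 and 1556. SLC27A1, a fatty acid transport protein, went from 597 to 237 with sh1 and 470.0 with sh6. All 4 passed the limma test with both hairpins, with adjusted p of at most 0.00271, except that SLC27A1 with sh6 did not pass without the third sh6 library (-0.201, limma adjusted p = 0.0553). Of the same list, 3 genes rose with both hairpins and are named after their values were seen. SLC27A4, another fatty acid transport protein, went from 309 to 531 and 536, a rise of 0.69 and 0.70 on the log2 scale (limma adjusted p = 4.08e-09 and 1.9e-09). FABP5, a fatty acid binding protein, went from 18.7 to 41.9 and 49.1, and SLC27A2, an acyl-CoA synthetase of very long chains, from 240 to 298 and 293. The sh6 call of SLC27A2 was lost without the first control (limma adjusted p = 0.0513) or the first sh6 library (limma adjusted p = 0.067).

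Of 11 tested genes that set malonyl-CoA, 3 rose and 2 fell with sh1, and 4 rose and 2 fell with sh6. STK11, the kinase upstream of AMP-activated kinase, rose by 0.28 (limma adjusted p = 0.00275) and 0.64 (limma adjusted p = 2.23e-08), and PRKAA1, a catalytic subunit of that kinase, fell by 0.46 (limma adjusted p = 8.58e-08) and 0.31 (limma adjusted p = 4.47e-05). Of 17 tested genes of mitochondrial beta-oxidation, 1 rose and 5 fell with sh1, and 2 rose and 7 fell with sh6. ETFDH and ETFA, which pass electrons from the acyl-CoA dehydrogenases to the respiratory chain, fell by 0.42 and 0.25 with sh1 and by 0.40 and 0.36 with sh6, and DECR1, an enzyme for unsaturated acyl groups, fell by 0.30 and 0.32. Of 14 tested genes of peroxisomal beta-oxidation, whose products CROT receives, none rose and 6 fell with sh1, and 2 rose and 6 fell with sh6. HSD17B4, AMACR, ACOX3 and SCP2 fell with both hairpins, HSD17B4 by 0.38 with sh1 and by 0.34 with sh6. The sh1 call of ACOX3 was lost without the second sh1 library (-0.207, limma adjusted p = 0.0907) and under voom (limma adjusted p = 0.0726).

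PPAR receptors with RXR partners are known to induce several shuttle genes. Of 10 tested genes for these receptors, their partners and coregulators, 4 rose and 2 fell with sh1, and 3 rose and 3 fell with sh6. RXRB rose by 0.50 and 0.47, and PPARD fell by 0.17 and 0.65. The sh1 call of PPARD was lost without the first control (limma adjusted p = 0.0505) or the third sh1 library (-0.117, limma adjusted p = 0.149), and under voom its sh1 change was -0.065. Of 5 tested PPAR-induced genes outside the shuttle, none rose and 4 fell with sh1, and none rose and 1 fell with sh6, ANGPTL4, whose mean count went from 43.9 to 5.63 and 23.2. No set test was made on these lists, and their counts are read beside the percentages over all genes given above.

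**Figure D5:**
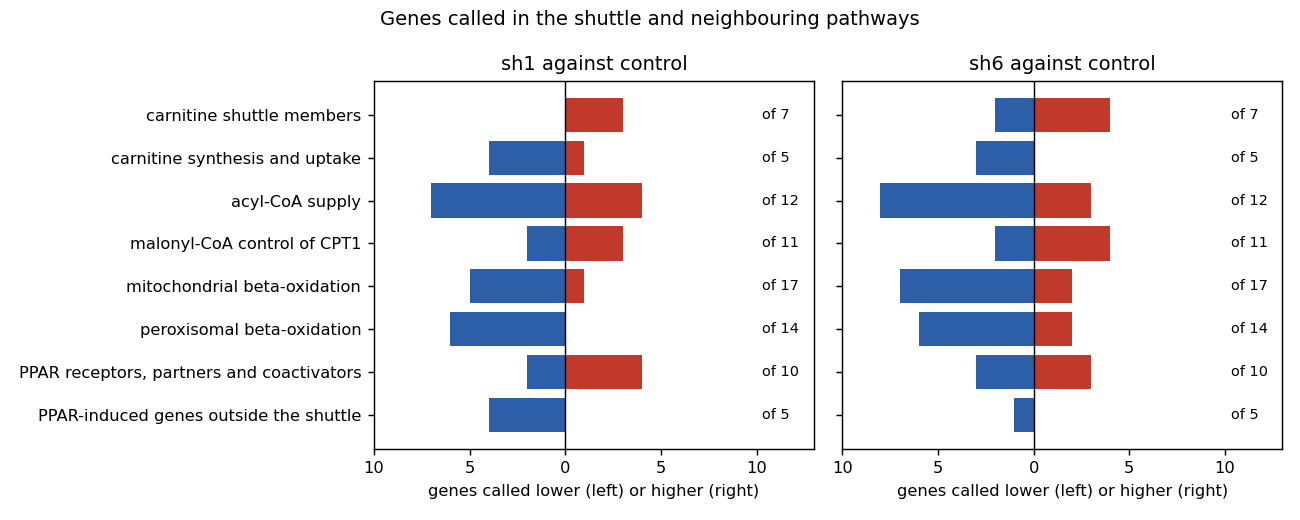
Number of genes called lower (left of 0, blue) and higher (right of 0, red) at a limma adjusted p under 0.05 in each list, with sh1 and with sh6 against the control, and the number tested at the right. The bars of carnitine synthesis and uptake include BBOX1, the target of both hairpins. With sh1, 1 of 17 beta-oxidation genes is higher and 5 lower, and 3 of 7 shuttle genes are higher and none lower; with sh6 these counts are 2 and 7, and 4 and 2, while over all genes tested 29.0% are higher and 30.0% lower with sh1, and 34.2% and 33.6% with sh6.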

How the data were processed

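Polyadenylated RNA of 9 MDA-MB-468 libraries (3 groups of 3, grouped by the sample titles) was sequenced as paired reads of 100 bases, per the labels. Tools named in the submitters' processing notes are cutadapt, STAR, DESeq2 and Salmon, with hg19 as the build and no versions or order. The authors deposited variance-stabilised log2 values of 27315 gene rows, which the table's name calls batch-corrected, together with a comparison of their own, as log2 fold change and adjusted p-value, whose groups are not stated. The batch is not stated there.

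The log2 values share a floor of 5.02, at which 8075 genes lay in all libraries. They were inverted to normalised counts in closed form. Of recovered reads between 0.5 and 20.5, 73.2% to 80.3% per library were whole within 0.05. Genes with a mean at least 1 above the floor (a normalised count of 16.2) were kept, 13165 in all (48.2%). Changes are on the deposited log2 scale, which understate the change of low genes. Precision is limited by 3 libraries per group.

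The test was limma 3.58.1 (R 4.3.3) with a mean trend, two-sided, on all 9 libraries in 1 model of 3 groups, tested first on simulated data. Single values had exact permutation tests (scipy 1.17.1). Tables used pandas 2.3.3 and numpy 2.4.6 in Python 3.11.15, and figures matplotlib 3.10.9. Gene positions and lengths came from GENCODE on GRCh38, not the authors' build. Positions were not used to read the values. The levels and shares per kilobase rest on the lengths of 1 chosen transcript per gene. Named genes were all members, BBOX1, up to 4 genes per list that passed the test in 1 direction under each hairpin, the 2 genes most alike to each member, and genes overlapping or abutting a member; 8 others were named after their values were seen (SLC27A4, FABP5, SLC27A2, ESR1, ERBB2, CD68, SERPINA1 and PTPA). EGFR, KRT5, EPCAM, KDR, TEK, COL1A1 and PDGFRA were also named from the marker lists after their values were seen. SLC22A5 was named likewise from the carnitine synthesis and uptake list, and it is not in the tally of alternatives for other named genes. Members and lists were chosen with earlier results of these data known. The alternatives changed the filter, the scaling, the variance prior, the scale or the threshold, added sample weights or a replicate block, or left out 1 library. The sum of CPT1B with its read-through was added after seeing the data. A further 27 symbols that read as dates are not named. The result of 1 further marker list is not reported here.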

Additional observations from a re-analysis of the deposited data

Results flagged for a closer look

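The change of 4 shuttle genes differed between the hairpins by the direct test of sh6 against sh1 in limma, with 3 libraries each. Over all genes tested, 59.7% differed in the same test, so a difference between the hairpins is not particular to these genes. On the log2 scale, sh6 less sh1 was 0.67 for CPT1C, -0.28 for CPT2, -0.41 for CRAT and 0.26 for CROT. CPT1C and CRAT moved in the same direction with both hairpins, further with sh6, although the sh1 change of CRAT did not pass. CPT2 and CROT moved with sh6, and their sh1 changes were 0.04 and 0.05. BBOX1 itself was 0.75 higher with sh6 than with sh1. Over all genes tested, the median absolute log2 change from the control was 0.28 with sh6 and 0.22 with sh1. Larger changes with sh6 are therefore not particular to these 4 genes. Whether the BBOX1 level or the sequence of the hairpins has a part in these differences was not tested.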

How the results depend on the processing

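Of 620 alternative values computed for the 28 results of the 7 members (7 genes in 4 comparisons), 595 kept their direction and their side of the threshold, and 17 of the 28 results did so under every alternative run. Many alternatives left the log2 change itself as it was, so the direction could not turn in them. These were the filters, the variance priors, the replicate block, the stricter threshold, fitting only the groups compared, and leaving out a library of a group not compared. The tally therefore overstates how far the direction was tried. CPT1A, CPT1C and SLC25A20 against the control were among the 17 with each hairpin, as were CPT2, CRAT and CROT with sh6. Of 1528 values for the other named genes, 1463 kept both. Counts of list genes called stayed within 1.5 times in 666 of 704 alternatives.

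Limma's voom on the recovered counts scaled each library a second time, to its summed normalised count. Those sums were 17316682 to 17387504 in the controls, 15915553 to 16146718 with sh1 and 17180837 to 17266898 with sh6. Under this voom setting, the median of all genes moved by 0.11 with sh1 (65.0% of calls higher, against 49.1%) and by -0.09 between the hairpins (37.5% higher with sh6, against 51.6%). There the change of CPT1B with sh1 was 0.071, that of CPT2 with sh1 0.155, that of CRAT with sh1 -0.027, that of MAGOH, beside CPT2, with sh1 0.095, that of PTPA, which overlaps CRAT, with sh1 0.057, and sh6 less sh1 was -0.022 for CPT1A and 0.245 for CROT (limma adjusted p = 0.0732). Sample weights gave -0.145 for CRAT with sh1, -0.082 for CPT1B in the mean and 0.003 for MAGOH with sh1, and median centring 0.002 for MAGOH. Quantile normalisation gave 0.004 for PTPA with sh1 and 0.233 for CPT1B between the hairpins (limma adjusted p = 0.0298). CPT1B with its read-through summed, chosen after seeing the data, gave -0.029 in the mean. With both hairpins pooled as 1 group, 5018 genes and 3 members were called in place of 8619 and 5, and CRAT (-0.332) and CROT (0.178) lost their calls. CROT in the mean also lost its call with no filter (0.178, limma adjusted p = 0.056), and both it (0.178) and CROT between the hairpins (0.258) lost theirs at an adjusted p under 0.01.

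Leaving out each library gave ranges of -0.111 to 0.065 for CPT1B, -0.008 to 0.086 for CROT, -0.242 to 0.002 for TP53TG1, beside CROT, and -0.046 to 0.023 for MAGOH and -0.096 to 0.012 for PTPA, all with sh1. The ranges were 0.084 to 0.242 for CPT1B with sh6, -0.001 to 0.154 for CPT1B and 0.149 to 0.201 for CROT in the mean, and 0.117 to 0.255 for CPT1B and 0.201 to 0.315 for CROT between the hairpins. The cause of these moves was not tested. With a replicate block, 7950 genes were called with sh1, 9049 with sh6, 8735 in the mean and 8002 between the hairpins. Without it these counts were 7760, 8922, 8619 and 7861, and no member's call changed. Deviations from the group means correlated at -0.128 to 0.176 between libraries with the same number, 3 of 9 over 0.1. Between libraries with different numbers the correlations were -0.183 to 0.168. These values do not settle whether libraries with the same number share a culture or day. No label says that they do, so the numbers are not taken to pair them.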
